A study of Homo sapiens with 16 samples.

Results

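The homeobox genes described here encode developmental transcription factors that lie outside the 4 HOX clusters, and they were taken from a fixed list of symbols in the NKX, LHX, LMX, sine oculis (SIX2, SIX3 and SIX6), DLX, EMX, OTX, GBX, MSX, IRX, BARHL, VAX1, EN, GSX, PITX and ALX families. All 54 listed genes were found in the annotation, among 20163 protein-coding genes. The 53 analysed here are called the members, and 1 listed gene was not analysed here. For each gene the body plus 5 kb on each side (the window) was intersected with the regions called for the repressive mark H3K27me3 and for the enhancer-associated mark H3K4me1. The windows of DLX1 and DLX2 overlapped, as did those of DLX5 and DLX6, so these neighbours are not independent.

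CUT&Tag, in which an antibody directs a transposase to the chromatin that carries a mark, was done in BE2C, a human neuroblastoma cell line with MYCN amplification. Cells received a control siRNA (siCtrl) or the single KDM6B siRNA siKDM6B33 and were compared at 72 h, and in a separate pair of groups cells received 0.1% DMSO or 2.5 µM GSKJ4, an inhibitor of KDM6 demethylases, for 72 h. Each treatment had 2 replicates for each mark, which gave 16 libraries in 8 groups. The study describes the replicates as biological, and the labels do not say which cultures they came from. The knockdown rests on 1 siRNA in 1 cell line.

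Homeobox transcription factors bind DNA through a conserved helical domain and set the identity of regions and cell types in the embryo. Outside the lineage that uses them, their genes are textbook targets of the Polycomb repressive complexes, which deposit H3K27me3 over broad domains, and KDM6B is one of the enzymes that removes this mark. H3K4me1 is found at enhancers and on the shoulders of active promoters, and it can lie beside H3K27me3 at developmental genes that are kept silent.

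Polycomb domains at such genes commonly sit over promoters rich in CG dinucleotides. The 200 bases directly upstream of 5 members are therefore shown, on the strand of the gene, with each CG in capitals. NKX2-2, LHX5 and NKX3-2 had the largest differences in H3K4me1 coverage after siKDM6B33, NKX6-1 had no H3K27me3 island in any library, and IRX1 had no H3K4me1 island in any library.
NKX2-2: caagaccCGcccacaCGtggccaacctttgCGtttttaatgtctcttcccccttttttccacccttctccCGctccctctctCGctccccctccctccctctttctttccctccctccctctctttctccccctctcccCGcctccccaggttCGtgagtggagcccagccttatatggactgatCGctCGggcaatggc
LHX5: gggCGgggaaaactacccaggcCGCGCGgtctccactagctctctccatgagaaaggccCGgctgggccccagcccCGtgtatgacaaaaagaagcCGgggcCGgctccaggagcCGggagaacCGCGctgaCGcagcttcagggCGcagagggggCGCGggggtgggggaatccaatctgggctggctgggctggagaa
NKX3-2: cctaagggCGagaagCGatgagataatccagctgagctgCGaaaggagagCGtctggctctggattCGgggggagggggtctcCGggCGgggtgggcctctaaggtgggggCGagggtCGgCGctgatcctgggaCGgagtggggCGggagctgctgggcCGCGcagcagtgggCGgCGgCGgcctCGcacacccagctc
NKX6-1: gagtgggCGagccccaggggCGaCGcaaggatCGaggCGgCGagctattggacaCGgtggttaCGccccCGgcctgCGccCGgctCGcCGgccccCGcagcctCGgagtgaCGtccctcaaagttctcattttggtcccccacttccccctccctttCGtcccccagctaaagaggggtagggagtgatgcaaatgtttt
IRX1: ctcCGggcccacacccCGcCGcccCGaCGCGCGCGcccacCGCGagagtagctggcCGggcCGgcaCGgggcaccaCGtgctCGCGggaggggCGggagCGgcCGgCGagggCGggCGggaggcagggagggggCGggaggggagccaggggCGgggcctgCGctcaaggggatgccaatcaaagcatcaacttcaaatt
These sequences were read from GRCh37 (hg19) at chr20:21494703-21494902 (minus strand), chr12:113910086-113910285 (minus), chr4:13546133-13546332 (minus), chr4:85420446-85420645 (minus) and chr5:3595746-3595945 (plus), in that order, and none overlapped an annotated exon. They held 9 CG dinucleotides for NKX2-2, 15 for LHX5, 18 for NKX3-2, 17 for NKX6-1 and 25 for IRX1. The 2 genes chosen for lacking islands thus had 17 and 25 in these bases and the 3 with the largest H3K4me1 differences had 9 to 18. Over the 53 members the median was 15, ranging from 1 for LHX6 to 34, against 12 over all protein-coding genes. At least 10 were present in 75.5% of members and in 56.4% of all protein-coding genes. The members were also compact, with a median window of 16.3 kb against 37.2 kb for all protein-coding genes.

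The called regions differed in extent between libraries, and the lists hold no read counts per region. Islands, the broad regions called by SICER, covered 53.7 to 89.8 Mb per library for H3K27me3 and 68.0 to 114.6 Mb for H3K4me1. GSKJ4 replicate 1 of H3K27me3 stood apart, with 16675 islands against 8005 in replicate 2 at a similar covered length (66.9 and 72.6 Mb). The Jaccard index of island sequence between replicates was 0.518 for that pair and 0.632 to 0.727 for the other 7 groups. H3K4me1 islands lay over 8 adrenergic neuroblastoma markers in every library, and over FOSL1, COL1A1 and TWIST1 of 5 mesenchymal markers, whereas the T cell marker CD3E and the liver marker ALB had no island of either mark in any library. TH, which encodes the rate-limiting enzyme of catecholamine synthesis, lay inside H3K27me3 islands over 100% of its window in both DMSO libraries and over 0% in both siCtrl libraries, so the controls of the pair of experiments differed from each other at some genes.

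H3K27me3 covered most of the members in every library. The mean share of the window inside islands was 64.2% and 64.4% in siCtrl, 65.6% and 65.0% in siKDM6B33, 65.5% and 67.0% in DMSO, and 57.3% and 66.3% in GSKJ4. Across all protein-coding genes the mean was 4.61% to 7.62% and the median was 0 in each library. An island touched the windows of 45 of the 53 members in all 8 libraries. At least 50% of the window was covered in all 8 libraries for 31 members (58.5%), as it was for 296 of all protein-coding genes (1.47%), 20 of 63 other homeobox genes and 24 of 39 HOX cluster genes. The members therefore lay closer to the HOX clusters than to the other homeobox genes in this share, a description on which no test was run.

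NKX2-2 (chr20:21491655-21494702), which patterns the ventral neural tube, NKX2-5 (chr5:172659112-172662314), a regulator of heart development, MSX1 (chr4:4861392-4865663), which acts in craniofacial and limb development, and IRX4 (chr5:1877527-1887350), a regulator of ventricular identity, were 100% covered in each of the 8 H3K27me3 libraries. In 6 of the 8 H3K27me3 libraries the widest island over a member start was that of the engrailed gene EN2, which patterns the midbrain and hindbrain. Its start sat in an island of 86.6 kb in siCtrl replicate 1 and 66.2 kb in replicate 2, 65.8 and 57.2 kb in siKDM6B33, 70.0 and 67.0 kb in DMSO, and 19.6 and 70.0 kb with GSKJ4. The widest was that of IRX4, at 59.4 kb, in siKDM6B33 replicate 2 and that of LMX1B, at 49.4 kb, in GSKJ4 replicate 1. Over all members with a start in an island, the median width was 13.0 to 20.5 kb per library, against a median of 3.0 to 7.4 kb for all islands of the same library.

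Of the members, 3 had no H3K27me3 island in any library. They were NKX6-1 (chr4:85413138-85420445), a regulator of motor neuron and beta cell identity, NKX6-3 (chr8:41502696-41508336) and DLX6 (chr7:96634865-96640352). NKX6-1, NKX6-3 and DLX6 each carried H3K4me1 in both siCtrl libraries, with 24.3% and 23.1%, 33.2% and 29.4%, and 28.1% and 20.4% of the window covered. Conversely IRX1 and IRX2, a pair of Iroquois genes on chromosome 5, lacked H3K4me1 islands in all 8 libraries, while H3K27me3 covered 71.0% to 94.1% of IRX1 and 39.4% to 100% of IRX2.

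**Figure D1:**
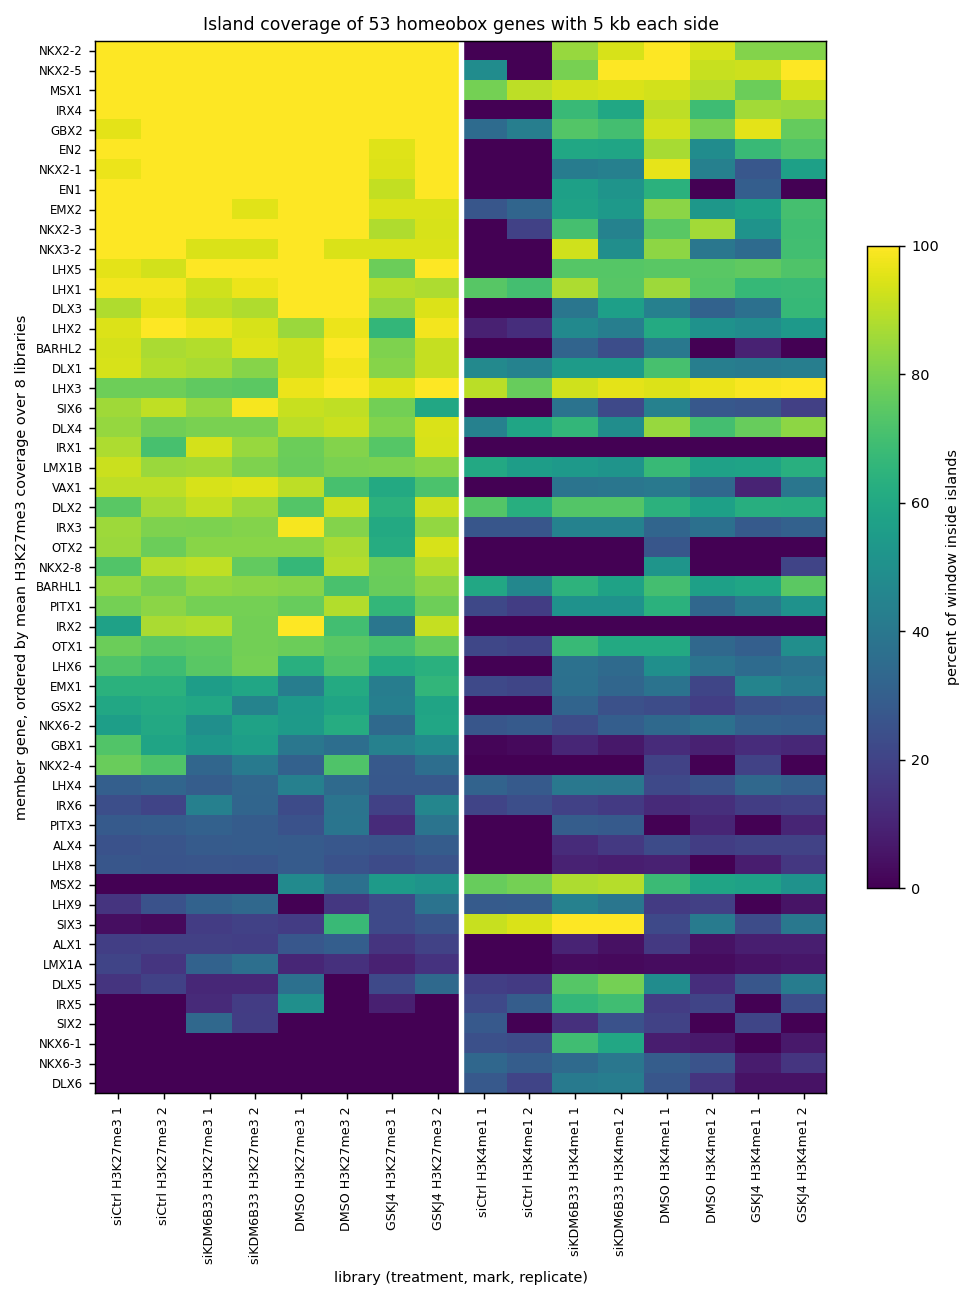
Each row is 1 of the 53 members and each column 1 of the 16 libraries (8 of H3K27me3 on the left, 8 of H3K4me1 on the right), and colour gives the percent of the gene body with 5 kb each side that lay inside islands. H3K27me3 was broad in every treatment for the upper rows, with NKX2-2, NKX2-5, MSX1 and IRX4 at 100% throughout, whereas the H3K4me1 columns of siCtrl were empty for 24 and 25 members.

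The levels are given by family as a description, without a test between families. H3K27me3 covered on average 70.3% and 72.2% of the 10 NKX windows in siCtrl, 62.4% and 62.2% of the 10 LIM homeobox windows (LHX and LMX genes), 59.3% and 61.4% of the 6 DLX windows, 59.0% and 60.0% of the 6 IRX windows and 29.9% and 30.9% of the 3 windows of SIX2, SIX3 and SIX6. The order of the first 4 was not the same in every library, and in DMSO replicate 1 the IRX mean was 74.8% and the NKX mean 65.2%. The mean of SIX2, SIX3 and SIX6 was set by SIX6, an eye and pituitary gene, at 85.9% and 90.2%, with SIX2, a kidney progenitor factor, at 0 in both libraries and SIX3, a forebrain factor, at 3.90% and 2.51%. SIX3 carried H3K4me1 over 91.6% and 94.4% of its window in the same cells. In H3K4me1 the family means in siCtrl were low for the NKX genes, at 13.3% and 9.98%, and for the IRX genes, at 11.5% and 13.4%, while the DLX genes had 35.1% and 33.8%.

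Knockdown of KDM6B left the mean H3K27me3 coverage of the members 0.99 percentage points higher than in siCtrl, while the mean over all protein-coding genes was 1.25 points higher. The knockdown libraries had more covered H3K27me3 sequence, at 89.8 and 87.3 Mb against 53.7 and 54.2 Mb in siCtrl. The direction for the members turned with the processing, to -1.33 points at equal covered length, -0.0513 at an equal number of islands and -0.439 with narrow peaks. Both siKDM6B33 libraries lay above both siCtrl libraries for 10 members and below them for 8, and the other 35 overlapped or had no island. A gene whose treated libraries both lie outside its control libraries is called apart here. Of all protein-coding genes 9.96% were apart as higher and 3.25% as lower, but 14486 of the 20163 had no island in any of the 4 libraries and could not be apart. At equal covered length 6 members were higher (11.3%) and 11 lower (20.8%), against 4.09% and 8.69% of all protein-coding genes. Genes with at least 50% of the window covered by H3K27me3 in both DMSO libraries, which this comparison does not use, gave a second background, with 17.8% higher and 8.91% lower. Of the 34 members in that class, 3 were higher and 4 were lower (8.82% and 11.8%), and their mean coverage was 87.6% and 88.4% in siCtrl and 88.8% and 87.8% in siKDM6B33. For the 729 other genes of the class the means were 43.9% and 44.3% in siCtrl and 46.4% and 45.9% in siKDM6B33. With 2 libraries against 2, the smallest p that an exact permutation test can give is 0.333 (two-sided), so no single member could pass a threshold of 0.05 in any of the 4 comparisons.

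The members that were apart lay on both sides. SIX2 (chr2:45232321-45236591) had no H3K27me3 island in either siCtrl library and was covered over 33.6% and 18.2% of its window after siKDM6B33. LMX1A (chr1:165171104-165325952), a dopaminergic neuron regulator with the longest window of the members, had 20.6% and 15.4% in siCtrl against 31.5% and 36.4%, and IRX6 (chr16:55358115-55364668) had 24.2% and 20.5% against 43.5% and 32.6%. In these 3 genes both knockdown libraries were the high ones, and the means differed by 25.9, 15.95 and 15.7 points. NKX2-4 (chr20:21376003-21378164) had the largest difference, with 77.3% and 72.4% in siCtrl and 32.9% and 41.1% after siKDM6B33. GBX1 (chr7:150845096-150871832), a gastrulation brain homeobox gene, had 73.0% and 58.3% against 52.8% and 56.2%. DLX1 (chr2:172949468-172954405), which acts in forebrain interneurons, had 93.8% and 88.4% against 87.1% and 81.7%. NKX2-4, GBX1 and DLX1 were thus lower in both knockdown libraries, with differences (treated minus control) of -37.8, -11.1 and -6.69 points. By family, the LIM genes had 4 higher and 2 lower, the NKX genes 0 higher and 2 lower, the DLX genes 0 and 2, the IRX genes 2 and 0, and SIX2 and SIX3 were both higher. Of the 63 other homeobox genes 7 were higher and 11 lower, and of the 39 HOX cluster genes 1 was higher and 6 were lower.

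Narrow H3K27me3 peaks, called by MACS2, were fewer over the members after knockdown, while the mean over all protein-coding genes was higher. The members had a mean of 7.89 and 8.09 peaks per window in siCtrl and 6.25 and 7.13 after siKDM6B33, so both knockdown libraries were lower, with a mean difference of -1.30 peaks. Over all protein-coding genes the mean was 1.21 and 1.24 in siCtrl and 1.51 and 1.51 after siKDM6B33. Fewer peaks after knockdown were also found over the 39 HOX cluster genes, with 5.62 and 5.49 against 4.13 and 4.95, and over 63 other homeobox genes, with 4.98 and 5.29 against 4.67 and 4.65. LHX5, a LIM gene of the developing hypothalamus and cerebellum, had 12 and 16 peaks in siCtrl and 4 and 6 after knockdown, although its island coverage was 96.0% and 93.3% against 100% in both. LHX3 had 17 and 16 peaks in siCtrl and 7 and 10 after siKDM6B33. Peak number was therefore lower at these genes while the share of the window inside islands stayed between 74.7% and 100%.

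H3K4me1 showed the largest difference. The mean share of the member windows inside H3K4me1 islands was 22.1% and 20.8% in siCtrl and 47.1% and 44.9% in siKDM6B33, a difference of 24.6 percentage points, against 5.13 points over all protein-coding genes. An island touched 29 and 28 members in siCtrl and 48 in each knockdown library. Both knockdown libraries lay above both siCtrl libraries for 40 of the 53 members (75.5%) and below them for 2, where 46.2% of all protein-coding genes were higher and 9.63% lower. Of the 20163 protein-coding genes, 6132 had no H3K4me1 island in these 4 libraries and could not be apart, against 5 of the members. Part of the gap to all protein-coding genes therefore comes from genes that could not be called. Among the genes at least 50% covered by H3K27me3 in both DMSO libraries 43.5% were higher and 15.7% lower. The 34 members of that class included 24 that were higher (70.6%), against 308 of the 729 other genes (42.2%). Their mean H3K4me1 coverage was 21.9% and 20.8% in siCtrl and 52.8% and 49.4% after knockdown, while the 729 other genes had 47.0% and 46.8% in siCtrl and 55.3% and 54.3% after knockdown. The members of the class thus started lower than its other genes and ended near them. In siCtrl the mean H3K27me3 coverage was 43.9% and 44.3% for the 729 other genes and 87.6% and 88.4% for the 34 members. The other genes were therefore not matched to the members in H3K27me3 in this experiment. The HOX clusters (26 of 39 higher, none lower) and the other homeobox genes (44 of 63 higher, 4 lower) had like shares, so the pattern was not limited to the members.

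The largest differences were at genes without any H3K4me1 island in control cells. NKX2-2 had 0 in both siCtrl libraries and 84.7% and 93.9% after siKDM6B33. LHX5 (chr12:113899838-113910085) had 0 in both siCtrl libraries and 73.5% in each knockdown library. NKX3-2 (chr4:13542454-13546132), which acts in skeletal patterning, had 0 in both and then 92.7% and 49.3%. The upstream bases of these 3 genes are printed above, and for each of the 3 the 2 knockdown values stood far from the 2 control values at 0.

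In all, 23 members had no H3K4me1 island in either siCtrl library, and 18 of them (78.3%) had one in both knockdown libraries, as did 42.0% of the 11365 protein-coding genes without a siCtrl island. The 18 were NKX2-1, NKX2-2, NKX3-2, LHX5, LHX6, LHX8, SIX6, DLX3, IRX4, BARHL2, VAX1, EN1, EN2, GSX2, LMX1A, PITX3, ALX1 and ALX4, and their coverage after knockdown ranged from 2.79% at LMX1A to 89.3% at NKX2-2, with a median of 37.4%. NKX2-4, NKX2-8, OTX2, IRX1 and IRX2 stayed without an H3K4me1 island in both knockdown libraries. No member with islands in both siCtrl libraries lacked them in both knockdown libraries. The 2 members that were lower were LMX1B (chr9:129376207-129463311), at 60.3% and 55.8% against 53.96% and 51.7%, and IRX6, at 20.5% and 24.2% against 19.3% and 16.9%.

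**Figure D2:**
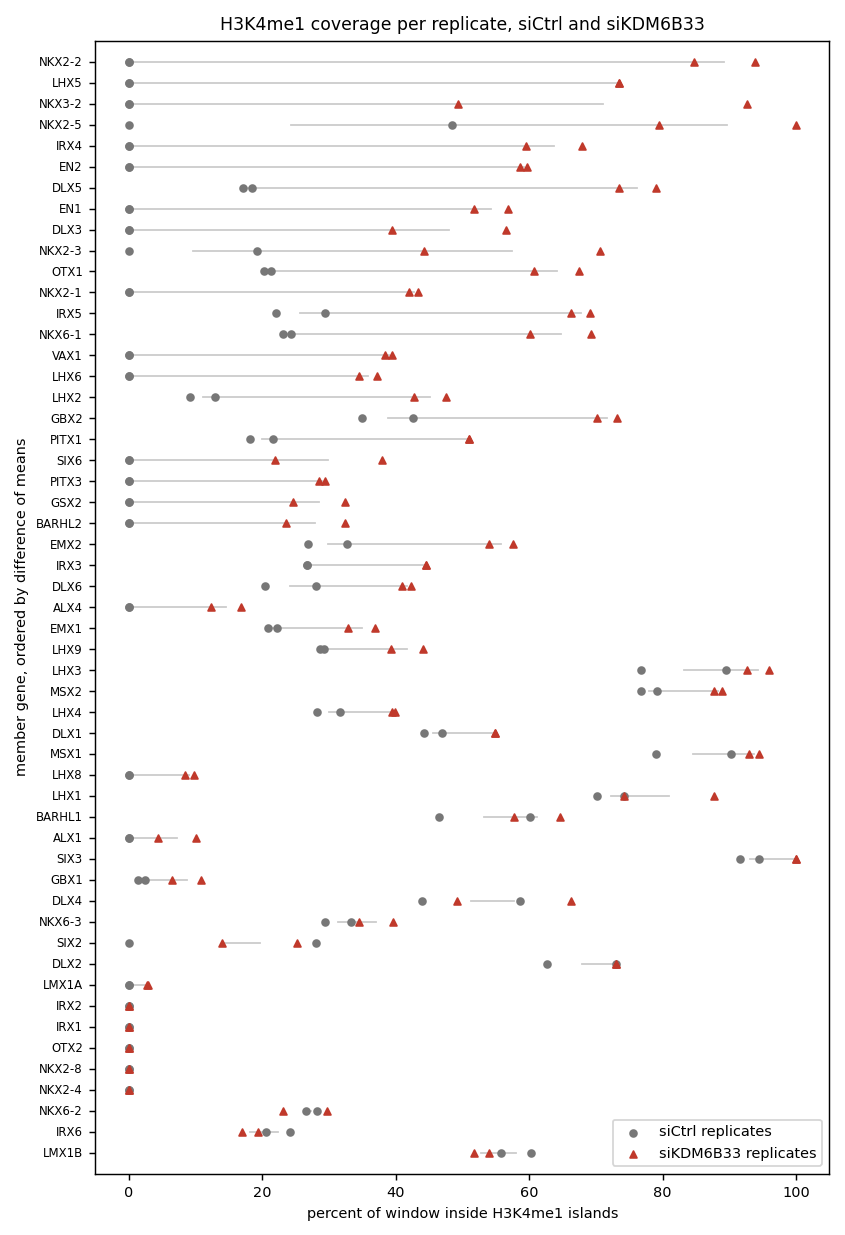
Percent of each member's window inside H3K4me1 islands in the 2 siCtrl replicates (grey circles) and the 2 siKDM6B33 replicates (red triangles), with a line between the group means and genes ordered by the difference. For 40 members both triangles lie right of both circles, and the top rows (NKX2-2, LHX5, NKX3-2) start from 0.

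By family the counts were uneven. Higher in both knockdown libraries were 7 of 10 NKX, 8 of 10 LIM, 4 of 6 DLX, 3 of 6 IRX genes, SIX3, SIX6 and 16 of the other 18 members. The IRX share, 3 of 6, was near the 46.2% of all protein-coding genes. Mean NKX coverage was 13.3% and 9.98% in siCtrl and 49.7% and 46.0% after knockdown, the widest family gap. DLX5 (chr7:96649708-96654262), a skeletal and neural crest factor, had 18.5% and 17.1% against 73.5% and 79.0%. Its neighbour DLX6 had 28.1% and 20.4% against 41.0% and 42.3%. NKX6-1, which lacked H3K27me3 islands, had 24.3% and 23.1% against 69.3% and 60.1%, so higher H3K4me1 coverage was also present where no H3K27me3 island was called. Narrow H3K27me3 peaks over NKX6-1 numbered 0 in each siCtrl library and 1 in each knockdown library.

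Narrow H3K4me1 peaks showed the same direction. The members had a mean of 3.51 and 3.26 peaks in siCtrl and 7.30 and 7.11 after siKDM6B33, a difference of 3.82 peaks, while all protein-coding genes had 5.39 and 5.19 against 6.28 and 6.18. NKX2-2 had 1 peak in each siCtrl library and 8 in each knockdown library, and DLX2 had 1 and 1 against 13 and 10. The island coverage of DLX2 overlapped between the groups, at 73.1% and 62.7% in siCtrl against 73.1% in both knockdown libraries. The total number of narrow H3K4me1 peaks overlapped between the groups, at 131291 and 125735 in siCtrl and 130214 and 128643 after knockdown.

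The knockdown H3K4me1 libraries had more covered sequence (114.6 and 114.4 Mb against 103.0 and 98.6 Mb). They also had a higher genome background, which is read from the fold and p of the narrow peaks and rises with the number of tags, at 0.107 and 0.105 tags per base against 0.0902 and 0.0849. When the 4 libraries were cut to equal covered length, highest island scores first, 36 of the 40 higher members and both lower members kept their call, with a mean difference of 22.3 points, while 38.7% of all protein-coding genes were higher and 11.8% lower. With the libraries cut to an equal number of islands, widest first, 39 members were higher and 2 lower, with a mean difference of 24.3 points. The part of depth in the result was otherwise not tested.

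The difference in H3K4me1 was larger at gene starts than 5 or 10 kb away. At the start itself 43.4% and 39.6% of the 53 members were inside an H3K4me1 island in siCtrl and 83.0% and 77.4% after siKDM6B33. Over all protein-coding genes these shares were 22.1% and 22.5% in siCtrl and 53.5% and 53.6% after siKDM6B33, so starts across the genome differed in the same direction. At 5 kb upstream the shares were 11.3% and 13.2% in siCtrl and 28.3% and 26.4% after knockdown, and at 5 kb downstream they were 18.9% and 20.8% against 49.1% and 47.2%. At 10 kb downstream they were 17.0% and 15.1% against 32.1% and 28.3%, and at 10 kb upstream 7.55% in both siCtrl libraries against 11.3% in both knockdown libraries. The median width of the islands over member starts was 4.60 and 5.60 kb in siCtrl and 8.20 and 6.80 kb after knockdown. H3K27me3 occupancy at the start was 84.9% and 83.0% in siCtrl and 84.9% in both knockdown libraries.

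**Figure D3:**
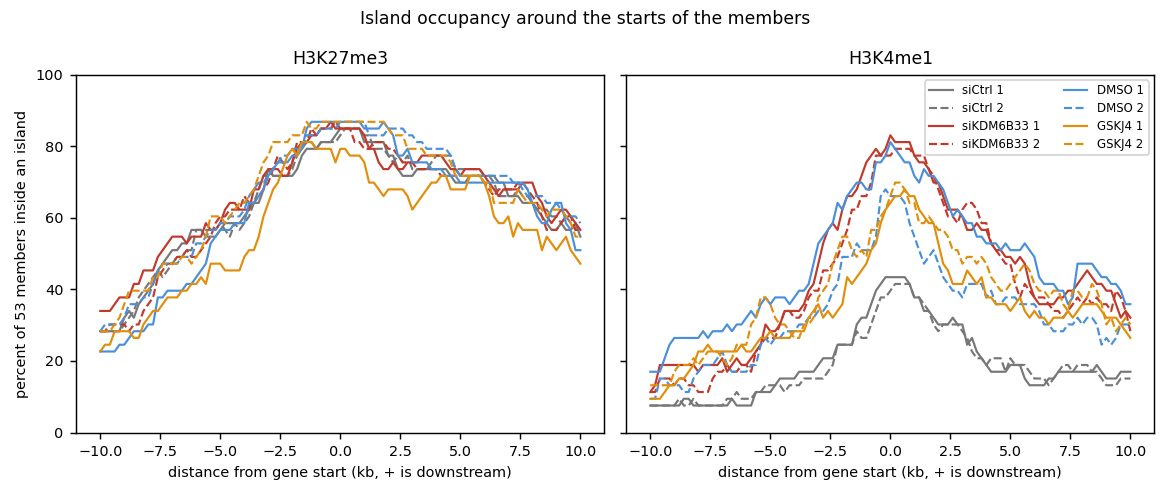
Percent of the 53 members inside an H3K27me3 island (left) or an H3K4me1 island (right) against distance from the gene start in kb, with 1 line per library (solid, replicate 1; dashed, replicate 2). At 5 kb upstream the H3K27me3 line of GSKJ4 replicate 1 is at 47.2% and the others are at 56.6% to 60.4%, while farther upstream DMSO replicate 1 is low as well, and the siCtrl H3K4me1 lines, at 43.4% and 39.6% at the start, lie under those of the 6 other libraries.

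The control cells of the compound experiment did not share the low siCtrl level. In DMSO the mean H3K4me1 coverage of the members was 48.3% and 35.2%, and islands touched 50 and 44 members, so both DMSO values lay above both siCtrl values. NKX2-2 had 100% and 93.9% in DMSO and LHX5 had 74.5% in both. Over all protein-coding genes the DMSO means, 7.79% and 6.92%, were below the siCtrl means of 9.43% and 9.22%. The higher DMSO level was shared by the HOX cluster genes, with 24.6% and 23.6% in siCtrl and 59.3% and 42.4% in DMSO, and by the other homeobox genes, with 18.6% and 17.7% against 29.3% and 23.6%. The experiments were separate and siCtrl was not compared with DMSO by a test, so handling, transfection and library preparation cannot be told apart.

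Fewer members were apart with GSKJ4. Mean H3K27me3 coverage was 65.5% and 67.0% in DMSO and 57.3% and 66.3% with GSKJ4, a difference of -4.41 points that was carried by GSKJ4 replicate 1, since without that library the difference was 0.109 points. Both GSKJ4 libraries were above both DMSO libraries for 4 members and below for 9. The background was 5.52% higher and 4.03% lower among all 20163 protein-coding genes, of which 12396 had no island in these 4 libraries and could not be apart. Among genes at least 50% covered by H3K27me3 in both siCtrl libraries it was 4.88% higher and 21.5% lower, and of the 37 members of that class 2 were higher and 7 lower (5.41% and 18.9%), close to those shares. Without GSKJ4 replicate 1 the counts over all members were 13 higher and 9 lower, and without replicate 2 they were 4 higher and 33 lower. Leaving out a library can only keep or add calls. Of the other homeobox genes 3 were higher and 10 lower, and of the HOX cluster genes none was higher and 11 were lower.

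LHX9 (chr1:197881032-197904608), a gonad and brain regulator, had 0 and 16.1% H3K27me3 coverage in DMSO and 22.04% and 38.1% with GSKJ4. MSX2 (chr5:174151585-174157899), a skull and neural crest factor, had 47.9% and 36.9% against 54.6% and 51.6%. GBX1 had 39.5% and 36.2% against 43.8% and 48.2%. These genes were higher in both GSKJ4 libraries, by 22.04, 10.7 and 8.17 points. MSX2 had no H3K27me3 island in any siCtrl or siKDM6B33 library. SIX6 (chr14:60975864-60979568) had 91.7% and 90.2% in DMSO and 78.8% and 59.8% with GSKJ4. LHX1 (chr17:35294084-35301912), a kidney and head organizer gene, had 100% in both DMSO libraries and 88.8% and 87.7% with the compound, and LHX4 (chr1:180199399-180248119), a pituitary gene, had 43.6% and 34.7% against 27.6% in both. Their differences were -21.7, -11.8 and -11.6 points. Narrow H3K27me3 peaks per member were 4.75 and 4.60 in DMSO and 4.79 and 3.34 with GSKJ4, which overlap.

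H3K4me1 coverage with GSKJ4 was 35.3% and 40.0% on average against 48.3% and 35.2% in DMSO, so the groups overlapped. The 2 DMSO libraries differed from each other by more than the treatments did, with a typical SD between replicates of 15.1 points per member. Both GSKJ4 libraries were higher for 6 members and lower for 11 (20.8%), where 10.3% of all protein-coding genes were higher and 7.96% lower. Of the 20163 protein-coding genes, 11089 had no H3K4me1 island in these 4 libraries and could not be apart, against 2 of the members. Among genes at least 50% covered by H3K27me3 in both siCtrl libraries the shares were 7.11% and 15.2%, and 3 of the 37 members of that class were higher and 7 lower (8.11% and 18.9%). Of the other homeobox genes 9 were higher and 12 lower, and of the HOX cluster genes 1 and 6. Without DMSO replicate 1 the counts were 22 higher and 12 lower, and without DMSO replicate 2 they were 7 higher and 32 lower. Narrow H3K4me1 peaks per member numbered 2.66 and 1.77 in DMSO and 1.93 and 2.0 with the compound.

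EMX1 (chr2:73143389-73163200), a cortical gene, had H3K4me1 over 38.2% and 20.8% of its window in DMSO and 44.9% and 40.9% with GSKJ4. LHX4 had 22.1% and 25.2% against 33.7% and 30.3%, and IRX6 had 12.1% and 13.3% against 18.1% and 19.3%. All 3 were higher in both GSKJ4 libraries, by 13.4, 8.34 and 6.04 points. NKX2-3 (chr10:101292699-101296281), a spleen and gut factor, had 74.4% and 86.0% against 51.5% and 69.2%. DLX6 had 26.8% and 15.2% against 4.86% in both GSKJ4 libraries, and NKX6-3 had 29.4% and 25.6% against 7.67% and 15.3%. Their differences were -19.8, -16.1 and -15.98 points, and DLX6 and NKX6-3 are among the 3 members without H3K27me3 islands. NKX6-1, the third of them, had 8.09% and 6.93% in DMSO and 0 and 6.93% with GSKJ4, which overlap.

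**Figure D4:**
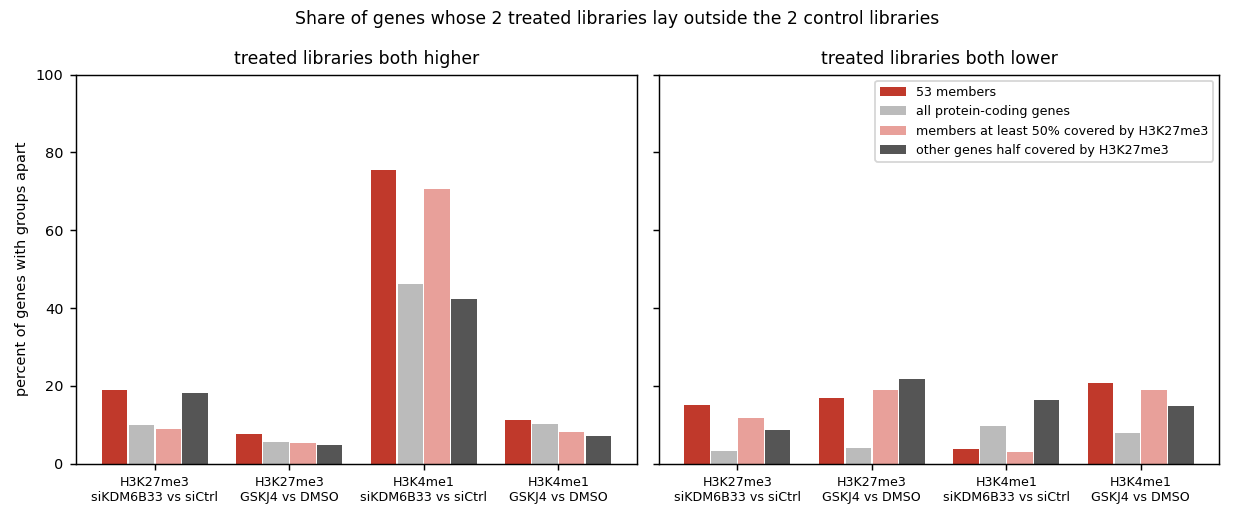
Percent of genes whose 2 treated libraries both lay above (left) or below (right) the 2 control libraries, for the 53 members, all protein-coding genes, and the members and other genes at least 50% covered by H3K27me3 in both control libraries of the other experiment. The members stand out in H3K4me1 after siKDM6B33, with 75.5% higher against 46.2% of all protein-coding genes, and lie near the H3K27me3-covered genes in both GSKJ4 comparisons. Genes without an island in the 4 libraries of a comparison count as not apart. For H3K4me1 after siKDM6B33 these were 6132 of the 20163 protein-coding genes and 5 of the members.

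The highest H3K4me1 levels over the 8 libraries were those of LHX3 (chr9:139088096-139096974), a pituitary and motor neuron factor, MSX1 and NKX2-5, with means of 93.2%, 88.6% and 76.5%. The order differed between experiments: SIX3 had 91.6% and 94.4% in siCtrl and 100% in both knockdown libraries but 21.99% to 41.5% in the DMSO and GSKJ4 libraries, and MSX2 had 76.7% and 79.2% in siCtrl. LHX3 ranged from 76.8% to 100%. NKX2-5 spanned the widest range of LHX3, MSX1 and NKX2-5, from 0 in siCtrl replicate 2 to 100%, and its siCtrl replicate 1 had 48.5%, so the size of its difference rests on which control library is used. LHX3, MSX1 and NKX2-5 were also covered by H3K27me3 over at least 74.7% of the window in every library.

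Islands of both marks overlapped over much of the members. Each H3K27me3 library was intersected with each H3K4me1 library of the same treatment, which gave 4 pairs per treatment that share libraries and came from separate cells. The mean share of the member windows inside both was 13.6% to 14.1% in siCtrl, 35.0% to 37.3% after siKDM6B33, 32.7% to 45.3% in DMSO and 33.2% to 37.2% with GSKJ4. Over all protein-coding genes the mean was 0.838% in siCtrl, 1.61% after knockdown, 4.15% in DMSO and 4.71% with GSKJ4. Members with overlapping islands in all 4 pairs numbered 19 in siCtrl, 44 after siKDM6B33, 37 in DMSO and 40 with GSKJ4. The same counts over all protein-coding genes were 1071, 2470, 3336 and 3723 of 20163. After knockdown 48.8% to 52.3% of the member sequence inside H3K27me3 islands was also inside H3K4me1 islands, against 22.3% to 23.2% in siCtrl. Over all protein-coding genes this share was 17.8% to 18.3% after knockdown and 12.3% to 12.6% in siCtrl. For the members it was 48.8% to 68.3% in DMSO and 49.9% to 66.1% with GSKJ4. All protein-coding genes had 55.7% to 63.3% in DMSO and 56.8% to 72% with GSKJ4, so there the share was not particular to the members. NKX2-2 went from 0 in all siCtrl pairs to 84.7% to 93.9% in the knockdown pairs. Because the marks were mapped in different libraries, both marks on 1 chromosome and on different cells cannot be told apart.

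Some other homeobox genes are known for their roles in sympathetic neurons and neuroblastoma, and their values are given for comparison. ISL1, a LIM homeobox factor of sympathetic and motor neurons, had 70.9% and 73.1% H3K4me1 coverage in siCtrl against 100% and 94.4% after siKDM6B33. MEIS1, MEIS2 and PBX3, which encode TALE cofactors, and ISL1 lacked H3K27me3 islands in siCtrl and siKDM6B33 and had higher H3K4me1 coverage in both knockdown libraries, from 4.92% and 4.65% to 24.1% and 25.5% for MEIS1. PHOX2A, a regulator of noradrenergic neurons, had 66.8% and 75.2% against 83.7% and 75.2%, where the highest control equalled the lower knockdown library. The higher H3K4me1 after knockdown was thus present at homeobox genes with and without H3K27me3 islands.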

How the data were processed

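H3K27me3 and H3K4me1 were mapped by CUT&Tag in 16 BE2C libraries, in 8 groups of 2 taken from the sample titles. The authors aligned reads to hg19 with BWA 0.7.12, removed duplicates with Picard 1.65, kept uniquely mapped pairs of 150 to 2000 bp, and called each library separately. Broad islands were called with SICER 1.1 (200 bp window, 600 bp gap) and narrow peaks with MACS2 at a q of 0.05. Each island of the deposited lists carries a score, which the caller sums over its windows. The deposited narrow peak lists give a fold enrichment (a ratio to the background of that library) and −log10 p and −log10 q. In the study, libraries were scaled by E. coli spike-in reads, and voom with limma was the test of differential regions. The lists hold no reads per region, so that fit could not be repeated.

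Coverage was the percent of each window (gene body with 5 kb each side, GENCODE 44 on GRCh37) inside merged islands, computed on all 20163 protein-coding genes. Narrow peaks were counted by their centres. Groups were compared by whether their libraries overlapped, since an exact permutation test of 2 against 2 cannot go below 0.333. Python 3.11.15, NumPy 2.4.6, pandas 2.3.3, SciPy 1.17.1 and matplotlib 3.10.9 were used, and the coverage and call steps were tested on simulated data. The mitochondrial chromosome was left out. The genome background of a library was the lowest that the fold and −log10 p of its narrow peaks allowed, over the 20 most frequent value pairs. Depth in reads was not given in the lists, and covered length stands in for it.

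The members, the gene lists and the tests were chosen with earlier results of these data known. The background of genes at least 50% covered by H3K27me3 in the other experiment's controls was added after seeing the data. Members were named by rule: in each comparison the 3 largest differences in each direction among members with groups apart, the 3 highest in each mark, those without an island, and PHOX2A, ISL1, MEIS1, MEIS2 and PBX3. Some items, among them 1 listed gene, are not reported here. Other members are given as examples, chosen after their values were seen. Alternatives changed the window, the joining of islands, the covered length, the number of islands, the peak type or the libraries kept. Same-numbered replicates were not paired, as the correlation of their deviations from group means was -0.0466 to 0.0789 over all genes.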

Additional observations from a re-analysis of the deposited data

Results flagged for a closer look

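In 11 cases the coverage of a single member went in opposite directions after siKDM6B33 and with GSKJ4, with both treated libraries outside both of their own controls in each experiment. The difference between the experiments was not tested, and the experiments had separate controls. Values below are differences of mean coverage in percentage points, treated minus control, followed by the knockdown value minus the compound value. In H3K27me3, GBX1 differed by -11.1 after knockdown and by 8.17 with GSKJ4, a difference of -19.3. Of all protein-coding genes 0.273% had the same pair of calls in H3K27me3.

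In H3K4me1 9 members were higher after knockdown and lower with the compound (17% of members, against 4.28% of all protein-coding genes). With 40 members higher after knockdown and 11 lower with GSKJ4, the product of these rates gives 8.3 members, so the count is close to what the separate counts give. NKX2-2 had the widest gap, with 89.3 after knockdown and -15.3 with GSKJ4 (104.6 apart). NKX2-3 had 47.9 and -19.8 (67.7), LHX6 35.9 and -7.56 (43.5), and SIX6 29.9 and -13.1 (43.0). DLX6 had 17.4 and -16.1 (33.6), and LHX9 had 12.8 and -15.5 (28.3). IRX3 had 17.8 and -5.19 (23), NKX6-3 had 5.75 and -15.98 (21.7), and MSX2 had 10.4 and -9.19 (19.6). IRX6 went the other way, at -4.23 after knockdown and 6.04 with GSKJ4 (-10.3), a pair of calls found in 1.89% of members and 3.05% of all protein-coding genes. For NKX2-2, coverage stayed at 81.6% or more in all 4 DMSO and GSKJ4 libraries, whereas it was 0 in both siCtrl libraries.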

How the results depend on the processing

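The higher H3K4me1 after siKDM6B33 kept its direction under every alternative run. The count of members that were higher was 29 to 42 under the other settings and 41 to 44 with 1 library left out, against 40. Leaving out a library can only keep or add calls, so such counts cannot fall below the main count. They are therefore no check on it, here and in the counts below. The mean difference, 24.6 points, was 31.1 over the gene body alone, 37.5 within 2.5 kb each side of the start, 22.3 at equal covered length and 1.83 with narrow peaks in place of islands (23.4 to 25.7 with 1 library left out). The 2 lower members became 1 over the gene body, within 2.5 kb of the start and with islands within 2 kb joined, and 0 when groups had to be apart by at least 10 points (2 to 3 with 1 library left out). The difference in narrow peaks, 3.82, was 4.08 at a −log10 q of at least 2 and 3.22 at 5 (3.70 to 3.94 with 1 library left out). The difference in sequence inside both marks, 22.4 points, was 19.9 at equal covered length and 36.1 near the start (21.2 to 23.5 with 1 library left out).

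H3K27me3 after siKDM6B33 had no settled direction. The mean difference, 0.986 points, was 0.248 over the gene body, -1.33 at equal covered length, -0.0513 at an equal number of islands and -0.439 with narrow peaks (0.701 to 1.27 with 1 library left out). The 10 higher members became 5 over the gene body, 3 near the start, and 6 at equal covered length, with narrow peaks and apart by at least 10 points (14 to 17 with 1 library left out). The 8 lower members became 2 over the gene body, 4 near the start, 22 with narrow peaks and 2 apart by at least 10 points (12 to 13 with 1 library left out). The difference in narrow peaks was -1.30 (-1.75 to -0.858).

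With GSKJ4, single libraries set the direction. For H3K27me3 the mean difference was -4.41 points, and -8.93 to 0.109 with 1 library left out. The difference in narrow peaks was -0.613, and 0.113 without GSKJ4 replicate 2 (range -1.34 to 0.113). The 4 higher members became 1 over the gene body, 0 near the start, 2 at equal covered length, 1 at an equal number of islands, 8 with narrow peaks and 2 apart by at least 10 points (4 to 13 with 1 library left out). The 9 lower members became 4 over the gene body, 1 near the start, 4 with islands joined and 20 with narrow peaks (9 to 33 with 1 library left out). For H3K4me1 the mean difference was -4.14 points and ranged from -10.7 to 2.40, where the highest value was without DMSO replicate 1. The difference in narrow peaks was -0.255 and ranged from -0.698 to 0.189, and that in sequence inside both marks was -3.60 points and ranged from -9.64 to 2.44. The 6 higher members became 3 over the gene body, 2 near the start and 1 apart by at least 10 points (7 to 22 with 1 library left out). The 11 lower members became 6 near the start and 7 apart by at least 10 points (12 to 32 with 1 library left out). The cause was not tested.

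With the replicate block, which asks for the same direction in both same-numbered pairs, 14 members were lower in H3K27me3 with GSKJ4 in place of 9, and no other count moved by more than 1.5 times. The replicates share only a number. The lists limit these values: a region under the caller's threshold counts as 0, a count of reads was not available for any window, and coverage does not measure the height of a mark.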
